A study of Populus ussuriensis with 9 samples.

Results

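Phytochromes and the CONSTANS/FLOWERING LOCUS T (CO/FT) genes form the light-sensing and day-length branch of growth control in poplar. The set was fixed by a list of 7 poplar locus IDs, for PHYA, PHYB1, PHYB2, CO1, CO2, FT1 and FT2, and 6 of them were rows of the expression table of 29764 genes. FT2 (Potri.010G179700.v3.0) was not analysed here. The gene names come from that list, because the table gives IDs only and no annotation was used here. RNA-seq was done on fully expanded leaves of greenhouse-grown Populus ussuriensis, a poplar tree, with 3 libraries for each of 3 genotypes. These were the transgenic line OE18 with high LbDREB6 overexpression, the line OE14 with moderate LbDREB6 overexpression, and wild type (WT). DREB proteins are plant transcription factors named for the dehydration-responsive element they bind. All plants, WT included, were 6 months old and had water withheld, for 2 weeks by the sample descriptions and for 1 week by the treatment protocol. There is 1 line per overexpression level, and the effects of level and of line cannot be told apart. The sources used here do not give the promoter of the transgene, the time of day or the day length at harvest. The 3 WT columns carry another heading than the sample titles and were assigned to WT by elimination.

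Phytochromes are red and far-red light receptors that switch between an inactive and an active form. In Arabidopsis PHYA senses far-red and very weak light, whereas PHYB is the main receptor in red light and for shade. CO and FT carry the day-length signal: in Arabidopsis CO encodes a zinc-finger transcriptional regulator whose protein is stabilised by light late in the day, and FT encodes a mobile signal made under its control. Poplar FT2 is known for sustaining shoot growth in long days, and poplar FT1 for its expression in winter and its role in the onset of reproduction.

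Values are FPKM, fragments per kilobase of gene and scaled to the library's assigned reads, so levels can be compared between genes. Read totals recovered from the table ran from 10988010 to 16221919 per library. Differences between genotypes are log2 fold changes of FPKM + 1 from a limma fit over the 22848 genes that reached an FPKM of 1 in 3 or more of the 9 libraries, and a gene was called at a Benjamini-Hochberg adjusted p under 0.05. PHYA, PHYB1, PHYB2, CO1 and CO2 passed this filter and exceeded an FPKM of 1 in every library, and FT1 did not pass. Whether the libraries of a genotype came from separate plants is not stated beyond their description as biological replicates. The limma p-values set a difference against the spread between libraries within genotypes. That spread was estimated over all 9 libraries together and drawn towards that of other genes. In leaf RNA, fewer cells of a type and less transcript per cell cannot be told apart.

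CO1 was the most abundant of the 6 genes in all 3 genotypes, followed by PHYA and PHYB2. CO1 averaged 94.3 ± 5.0 FPKM in OE18, 132 ± 5.47 FPKM in OE14 and 102 ± 3.27 FPKM in WT (SD, n = 3 each), and its WT mean was above that of 97.6% of all genes in the table. PHYA averaged 21.2 ± 1.35 FPKM and PHYB2 11.5 ± 0.560 FPKM in WT (SD, n = 3 each). PHYB1 and CO2 came next. In OE18 the PHYB1 libraries (4.86 to 5.65 FPKM) overlapped those of CO2 (4.93 to 6.14 FPKM). In OE14 and in WT every PHYB1 library lay above every CO2 library of the same genotype. FT1 was at the bottom, with 1 recovered read in 9 libraries.

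**Figure D1:**
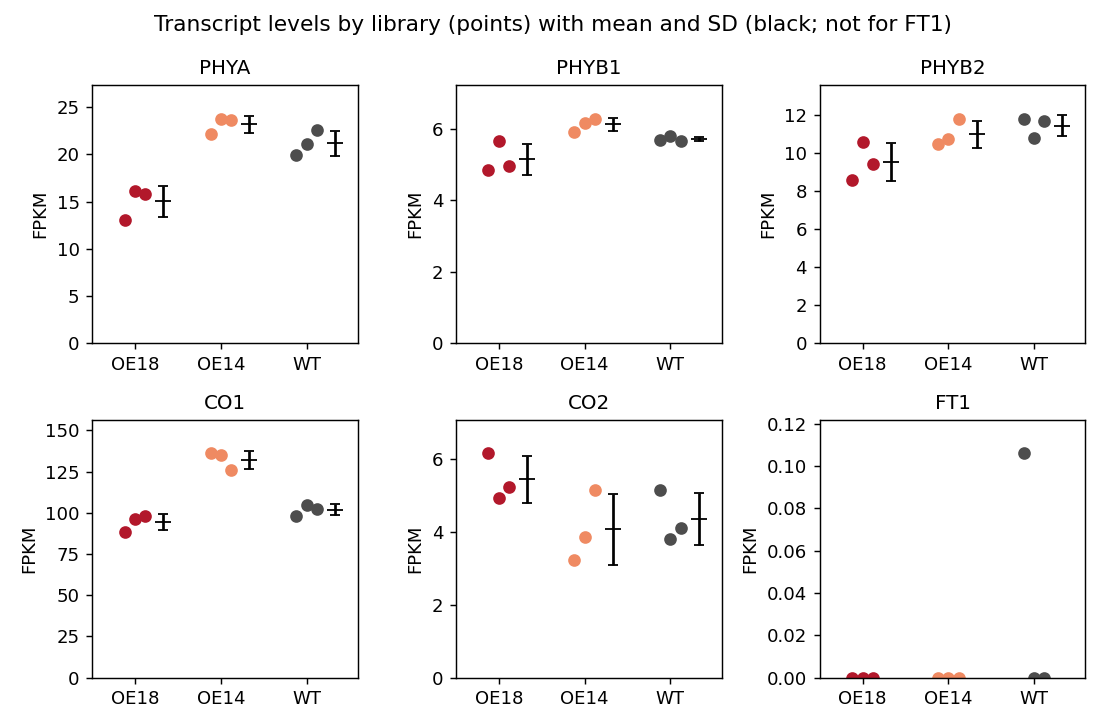
FPKM (vertical axis, from 0) of 6 genes in each OE18, OE14 and WT library (points), with the mean and SD of 3 libraries in black except for FT1. PHYA lies lowest in OE18, at 13.1 to 16.1 FPKM, and CO1 highest in OE14, at 126 to 136 FPKM.

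The clearest difference among the light receptors was in PHYA, which was lower in OE18 than in either other genotype. PHYA (Potri.013G000300.v3.0, chromosome 13 by its ID) had 13.1, 16.1 and 15.8 FPKM in OE18, 22.2, 23.8 and 23.6 FPKM in OE14, and 19.9, 21.1 and 22.6 FPKM in WT. All 3 OE18 libraries lay below every OE14 and WT library, while OE14 and WT overlapped. The mean FPKM in OE18 was 0.709 times that in WT. The log2 fold change, taken on FPKM + 1 in each library, was -0.47 (SE 0.077, limma adjusted p = 6.72e-05). Against OE14 the ratio of means was 0.647 and the log2 fold change -0.60 (SE 0.077, limma adjusted p = 7.14e-06). OE14 against WT gave 0.13 with a 95% interval from -0.04 to 0.29 and was not called (limma adjusted p = 0.185). The values rest on 759 to 1666 reads per library, and the spread among OE18 libraries, a coefficient of variation of 11.1%, exceeded the 3.49% that counting alone would give.

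PHYB2 was lower in OE18 than in WT by a smaller margin. PHYB2 (Potri.010G145900.v3.0, chromosome 10) had 8.60, 10.6 and 9.44 FPKM in OE18, 10.5, 10.7 and 11.8 FPKM in OE14, and 11.8, 10.8 and 11.7 FPKM in WT. The OE18 libraries lay below all WT libraries, and 1 of them overlapped OE14. OE18 against WT gave -0.24 on the log2 scale (SE 0.082, limma adjusted p = 0.0148). Without OE18 replicate 1, which had the lowest value of the 9, it was -0.18 and was no longer called (limma adjusted p = 0.0679). Against OE14 the log2 fold change was -0.19, just inside the threshold (limma adjusted p = 0.0485). That call was lost when any library other than OE14 replicate 1 or OE18 replicate 2 was left out, and the value ranged from -0.26 to -0.13 over the 9 fits, with -0.13 without OE18 replicate 1 (limma adjusted p from 0.0145 to 0.189).

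PHYB1, the other PHYB copy, was called in OE18 against OE14 and in neither comparison with WT. PHYB1 (Potri.008G105200.v3.0, chromosome 8) had 4.86, 5.65 and 4.95 FPKM in OE18, 5.92, 6.16 and 6.29 FPKM in OE14, and 5.68, 5.79 and 5.67 FPKM in WT. The 3 genotypes did not overlap, with OE18 lowest and OE14 highest, but the gaps were small. The highest OE18 library had 5.653 FPKM and the lowest WT library 5.670 FPKM, a gap well within counting error. The coefficient of variation was 1.13% in WT and 3.03% in OE14, below the 5.69% and 5.06% that counting alone would give. In OE18 it was 8.44%, above the 5.84% of counting. OE18 against OE14 gave a log2 difference of -0.21 (SE 0.085, limma adjusted p = 0.0332), a call that was lost without OE14 replicate 2 or 3 or without OE18 replicate 1 or 3 (-0.18 to -0.21, limma adjusted p from 0.071 to 0.0975). OE18 against WT gave -0.13 (95% interval -0.31 to 0.05, limma adjusted p = 0.179) and OE14 against WT 0.09 (95% interval -0.10 to 0.27, limma adjusted p = 0.416). After each library was rescaled to the same sum, OE18 against WT was called for PHYB1 (-0.21, limma adjusted p = 0.0427), and so it was after quantile normalization (-0.34, limma adjusted p = 0.00186), under which all genes had a median of -0.14 rather than 0.03.

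The 3 phytochrome genes are long, and long genes as a whole lay lower in OE18. Their lengths recovered from the table were 4315 bases for PHYA, 4470 for PHYB1 and 4906 for PHYB2, all in the longest decile of tested genes. In OE18 against WT the median log2 fold change of that decile was -0.34, and 58.4% of its genes were called lower. PHYA lay below this median, with 42.1% of the decile lower still, and PHYB1 and PHYB2 lay above it. In OE18 against OE14 the decile had a median of -0.28, and 29.7% of it was lower than PHYA. With the length trend of each library removed, an alternative chosen after the data were seen, PHYA remained lower in OE18 but by less, at -0.19 against WT (limma adjusted p = 0.00838) and -0.35 against OE14 (limma adjusted p = 0.00011). For PHYB2 the sign turned, to 0.12 against WT (limma adjusted p = 0.123) and 0.11 against OE14 (limma adjusted p = 0.153). For PHYB1 it turned to 0.18 against WT (limma adjusted p = 0.0512) and 0.05 against OE14 (limma adjusted p = 0.534). PHYA in OE14 against WT became a called rise of 0.15 in that fit (limma adjusted p = 0.0408). What underlies the length trend was not tested.

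**Figure D2:**
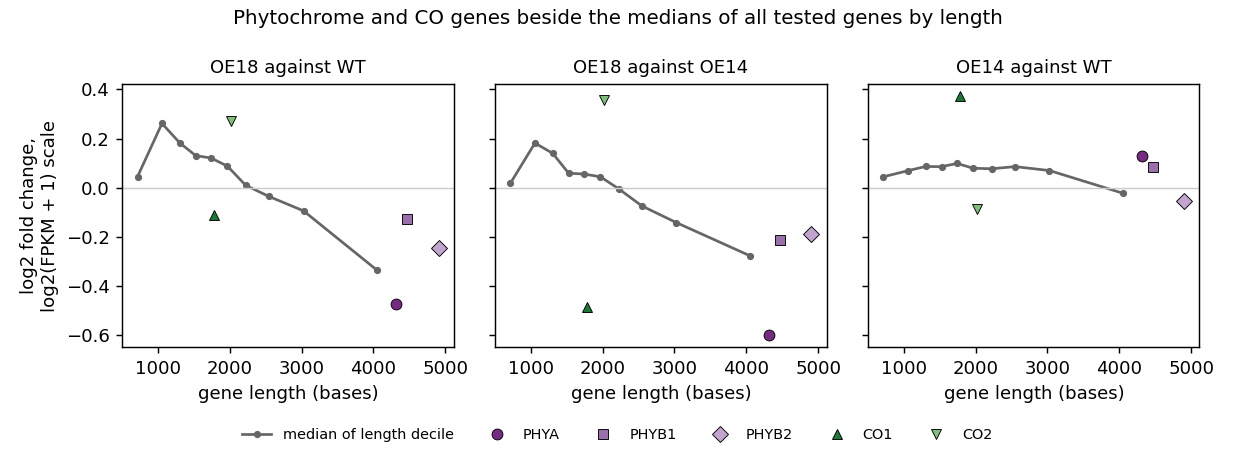
Log2 fold change (vertical axis) against gene length in bases (horizontal axis) for PHYA, PHYB1, PHYB2, CO1 and CO2, with the median of all tested genes in each length decile as a grey line, in the 3 comparisons. In OE18 against WT the line falls to -0.34 in the longest decile, with PHYA below it at -0.47 and both PHYB genes above it.

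Among the phytochrome transcripts, PHYA took a smaller share in OE18. PHYA made up 50.5% ± 1.66 of the summed phytochrome FPKM in OE18, 57.5% ± 0.919 in OE14 and 55.2% ± 1.77 in WT (SD, n = 3 each). The ratio of PHYA to PHYB2 within a library was 1.52, 1.52 and 1.68 in OE18, 2.12, 2.22 and 2.00 in OE14, and 1.681, 1.95 and 1.93 in WT. The OE18 ratios, the highest of which was 1.678, lay below those of OE14 and, by a narrow gap, below those of WT. This ratio does not depend on the scaling of a library, and it was given no test.

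No difference among the genotypes was detected in the proportion of the copies PHYB1 and PHYB2. PHYB1 stood at 0.541 ± 0.021 times PHYB2 in OE18, 0.558 ± 0.022 times in OE14 and 0.50 ± 0.031 times in WT (SD, n = 3 each). An exact permutation test of the F statistic of log2((PHYB1 + 1)/(PHYB2 + 1)) over all 1680 assignments of the libraries gave p = 0.15, which was also the value adjusted over the 2 pairs of copies tested. The mean difference of the log2 ratio was 0.12 for OE18 minus WT and 0.14 for OE14 minus WT. Such copies are alike in sequence, and how the authors' counting treated reads that match both is not stated in the sources used here.

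CO1 was higher in OE14 than in WT and OE18. CO1 (Potri.017G107500.v3.0, chromosome 17) had 88.6, 96.2 and 98.07 FPKM in OE18, 136, 135 and 126 FPKM in OE14, and 98.3, 105 and 102 FPKM in WT. All 3 OE14 libraries stood above every OE18 and WT library. On the log2 scale OE14 exceeded WT by 0.37 (SE 0.049, limma adjusted p = 2.55e-05), and the ratio of means 1.30. OE18 against OE14 gave -0.48 (SE 0.049, limma adjusted p = 6.09e-07). Both calls held in every alternative fit, with values from 0.30 to 0.41 for OE14 against WT and between -0.68 and -0.44 for OE18 against OE14. The values rest on 1917 to 3889 reads per library.

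In OE18 against WT the CO1 difference was small and depended on the scaling. The OE18 libraries lay below those of WT by a narrow gap, and the log2 fold change was -0.11 (95% interval -0.22 to -0.0037), which missed the threshold (limma adjusted p = 0.0545). It was called lower with limma voom on the recovered reads (-0.11, limma adjusted p = 0.043), median-of-ratios scaling (-0.15, limma adjusted p = 0.0159), rescaling to the same sum (-0.20, limma adjusted p = 0.00203) and quantile normalization (-0.32, limma adjusted p = 7.78e-05). It was also called with the length trend removed (-0.25, limma adjusted p = 0.000732), and without WT replicate 1 (-0.13, limma adjusted p = 0.0431) or OE18 replicate 3 (-0.14, limma adjusted p = 0.0319). CO1, at 1779 bases, lies in a length decile with a median of 0.12 in this comparison.

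CO2, the less abundant CO copy, took the opposite direction to CO1 between the lines. CO2 (Potri.004G108300.v3.0, chromosome 4) had 6.14, 4.93 and 5.22 FPKM in OE18, 3.21, 3.84 and 5.13 FPKM in OE14, and 5.13, 3.79 and 4.11 FPKM in WT. OE14 and WT covered much the same range, and 2 of the 3 OE18 libraries lay above all others. OE18 against OE14 gave a log2 difference of 0.36 (SE 0.14, limma adjusted p = 0.0321). Without OE14 replicate 1 this fell to 0.23 (limma adjusted p = 0.151), and the call was also lost without OE14 replicate 2 (0.33) or OE18 replicate 1 (0.28) or 3 (0.38), with limma adjusted p from 0.0518 to 0.124. It was lost as well under quantile normalization (0.21, limma adjusted p = 0.181), rescaling to the same sum (0.29, limma adjusted p = 0.0774), no filter on low values (limma adjusted p = 0.0554) and length trend removal (0.31, limma adjusted p = 0.0562). OE18 against WT gave 0.27 (95% interval -0.03 to 0.57, limma adjusted p = 0.093), and was called without WT replicate 1 (0.37, limma adjusted p = 0.0376). OE14 against WT gave -0.09 (95% interval -0.39 to 0.22, limma adjusted p = 0.626). Only 76 to 167 reads per library stand behind CO2, for which counting alone gives a coefficient of variation of 8.46% to 9.65%. The observed coefficient was 11.7% in OE18, 24.1% in OE14 and 16.1% in WT, so the spread exceeded that of counting.

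The balance of the 2 CO copies differed among the genotypes. The CO1 to CO2 ratio of FPKM was 14.4, 19.5 and 18.8 in OE18, 42.4, 35.1 and 24.5 in OE14, and 19.2, 27.6 and 24.9 in WT. It was lower in every OE18 library than in any OE14 library, and WT overlapped both lines. The exact permutation F test of the log2 ratio over 1680 assignments gave p = 0.0179, or 0.0357 adjusted over the 2 pairs of copies. Between OE18 and OE14 the mean log2 ratio differed by -0.84, with an exact permutation p = 0.1 that is the smallest 3 libraries against 3 can give. The adjusted F test p was 0.05 or more with a pseudocount of 0.1 (0.05) or with reads per base (0.0571). It was also 0.05 or more when any library other than WT replicate 1 or OE14 replicate 3 was left out, with a range from 0.0143 to 0.121. The difference of OE18 minus WT in this log2 ratio was -0.38 (exact permutation p = 0.2), and -0.26 without OE18 replicate 1.

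**Figure D3:**
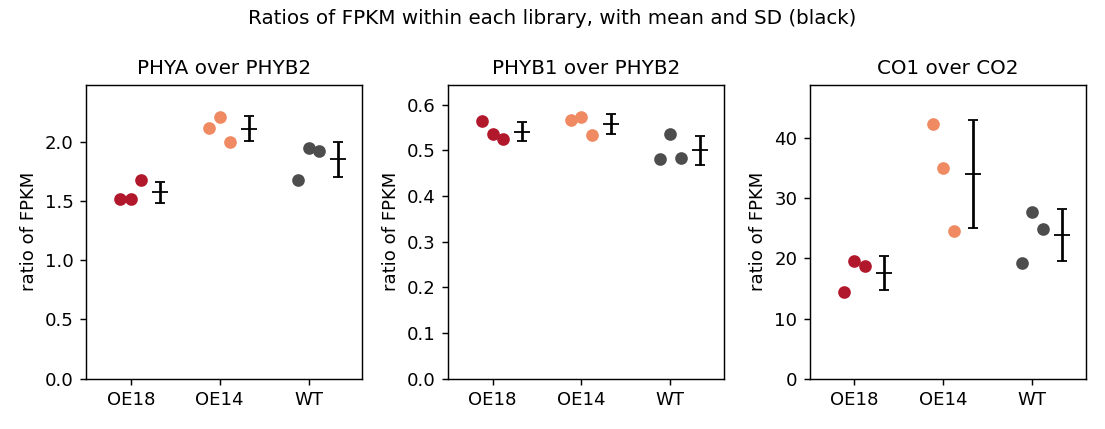
Ratio of FPKM (vertical axis, from 0) of PHYA to PHYB2, PHYB1 to PHYB2 and CO1 to CO2 within each OE18, OE14 and WT library (points), with mean and SD of 3 libraries in black. The CO1 to CO2 ratio is 14.4 to 19.5 in OE18 and 24.5 to 42.4 in OE14.

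FT1 was at the limit of detection. FT1 (Potri.008G077700.v3.0, chromosome 8) was listed at 0 in all 3 OE18 libraries, in all 3 OE14 libraries and in 2 WT libraries, and at 0.106 FPKM in WT replicate 1. That value corresponds to 1 read at a gene length of 705 bases. With a single value above 0, a multiple of both would give the same FPKM. For a count of 0 over a group, the 95% upper limit on the expected reads is about 3, for counting error only. At that length, 3 reads over a group correspond to 0.112 FPKM in OE18 and 0.0995 FPKM in OE14. No difference in FT1 could be detected at this depth, and no fold change is given.

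The calls in this group can be set beside those over all genes. In OE18 against WT limma called 2 of the 5 tested phytochrome and CO genes, PHYA and PHYB2, both lower. Over all tested genes it called 79.5%, with 41.6% higher and 37.9% lower. In OE18 against OE14 it called 5 of the 5, of which 4 were lower and CO2 higher, beside 77.7% of all genes, 38.8% in each direction. In OE14 against WT it called 1 of the 5, CO1, as higher, beside 52.8% of all genes, 31.9% higher and 20.9% lower. The groups were without overlap for 4 of the 5 genes in OE18 against WT, for 3 in OE18 against OE14 and for 2 in OE14 against WT. Over all tested genes these shares were 80.3%, 79.1% and 60.4%. The moderated F test over the 3 genotypes called PHYA (limma adjusted p = 1.32e-05), PHYB2 (0.0308) and CO1 (1.16e-06), but not PHYB1 (0.0802) or CO2 (0.0669), and 87.9% of all genes. The comparisons of the lines with WT share the WT libraries.

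In size most of the differences lay below the middle of all tested genes, by absolute log2 fold change. The median log2 fold change of the 5 genes was -0.13 in OE18 against WT, beside 0.03 for all tested genes, -0.21 beside -0.01 in OE18 against OE14, and 0.09 beside 0.07 in OE14 against WT. A called difference of 2-fold or more was found in 28.1% of all tested genes in OE18 against WT, 25.5% in OE18 against OE14 and 5.48% in OE14 against WT. PHYA had an absolute log2 fold change above that of 41.0% of tested genes in OE18 against WT and above that of 52.8% in OE18 against OE14. CO1 lay above 44.3% of them in OE18 against OE14 and above 65.4% in OE14 against WT. In OE18 against WT the shares were 11.7% for PHYB1, 22.2% for PHYB2, 10.1% for CO1 and 24.6% for CO2. They were 20.7% for PHYB1, 18.5% for PHYB2 and 33.9% for CO2 in OE18 against OE14. For OE14 against WT they were 27.1% for PHYA, 18.8% for PHYB1, 11.8% for PHYB2 and 19.2% for CO2.

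**Figure D4:**
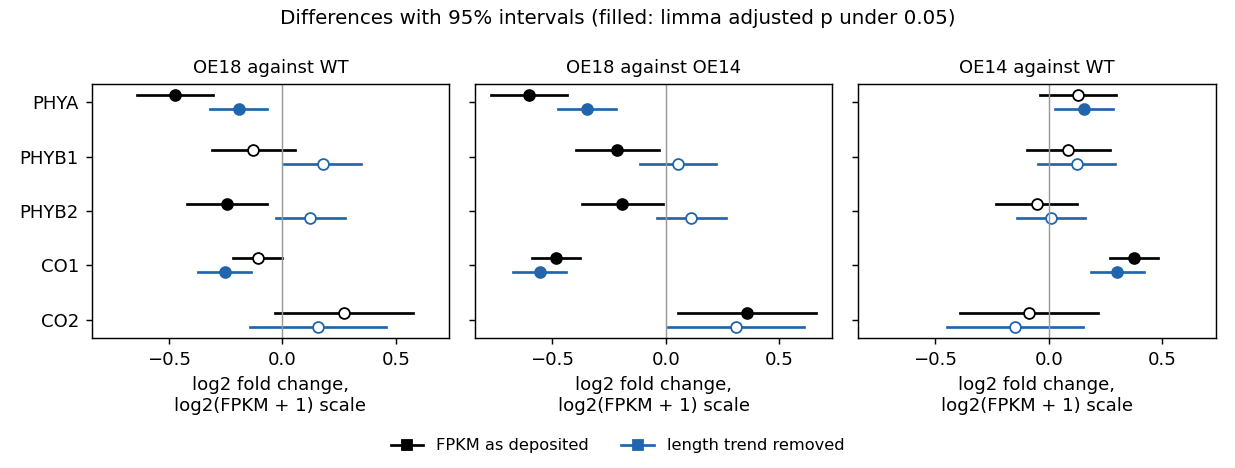
Log2 fold change with 95% interval (horizontal axis) of PHYA, PHYB1, PHYB2, CO1 and CO2 in the 3 comparisons, with FPKM as deposited (black) and with the length trend removed (blue); filled points have a limma adjusted p under 0.05. PHYA stays below 0 in both fits of OE18 against WT (-0.47 and -0.19), whereas both PHYB genes change sign.

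By locus ID order, the neighbours of PHYA, PHYB1, PHYB2, CO1 and CO2 had median log2 fold changes below 0 in both OE18 comparisons. All tested genes had medians of 0.03 in OE18 against WT and -0.01 in OE18 against OE14. The neighbours of FT1 had 0.02 and 0.05. How the genes themselves lay beside their neighbours differed. Medians were taken over the tested genes among up to 20 loci on either side. Around CO1 the 24 tested neighbours had a median log2 fold change of 0.11 in OE14 against WT, where CO1 had 0.37. Their median was -0.36 in OE18 against OE14, where CO1 had -0.48, and -0.09 in OE18 against WT, where CO1 had -0.11. PHYA lies close to the start of the chromosome 13 numbering, with 1 locus before it, so nearly all its neighbours come after it. Its 15 tested neighbours had a median of -0.07 in both OE18 against WT and OE18 against OE14, where PHYA had -0.47 and -0.60. Around PHYB1 the medians were -0.31 and -0.40 in these 2 comparisons, below PHYB1 in both. Around PHYB2 they were -0.20 and -0.22, close to the values of PHYB2. Around CO2 they were -0.24 and -0.06, where CO2 had 0.27 and 0.36. Single neighbours varied widely, in OE18 against WT from -2.32 to 1.70 around PHYA and from -1.76 to 2.55 around CO2. How often stretches around other genes have medians below 0 was not computed. These medians are descriptions without a test.

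More genes followed the course of PHYA and of CO1 over the 9 libraries than that of PHYB1, PHYB2 or CO2. How many follow a typical tested gene was not computed. A Pearson's r of 0.95 or more across the 9 libraries, which fall into 3 genotypes, was reached with PHYA by 566 tested genes (2.48%) and with CO1 by 251 (1.1%). It was reached by 11 genes with PHYB1, 6 with PHYB2 and 1 with CO2. An r this high is harder to reach for a gene whose differences are small beside its spread. The moderated F statistic over the 3 genotypes was 33.5 for PHYA and 53.4 for CO1. It was 3.23 for PHYB1, 4.84 for PHYB2 and 3.52 for CO2. Shared regulation was not tested. The gene most like PHYA was Potri.006G197200.v3.0 (r = 0.994), with 12.96 ± 1.12 FPKM in OE18, 21.3 ± 0.785 FPKM in OE14 and 19.4 ± 1.69 FPKM in WT (SD, n = 3 each). The most like PHYB2 was Potri.010G170700.v3.0 (r = 0.966) and the most like CO2 was Potri.013G132600.v3.0 (r = 0.982). The table does not name these loci.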

How the data were processed

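The deposited table gives FPKM values, fragments scaled by the authors to gene length and to the reads assigned in each library. Bowtie2 2.2.3 and HISAT2 2.1.0 are named, per the submitters' processing notes; counting tool, genome build and annotation are not given there or elsewhere in the sources used here. Reads and gene lengths were recovered from the steps of the values: all 29005 genes above 0 in 2 or more libraries gave whole reads at a whole length within 1e-05 reads, or within a thousandth of that per read for high values. Values were tested as log2(FPKM + 1), which understates changes of low genes, with limma 3.58.1 in R 4.3.3 (trend in the variance prior, two-sided, 6 residual degrees of freedom). A check on simulated data covered only OE14 against WT, in a fit of those groups alone. It assumed the same spread between libraries for all genes, below that seen for CO2, so it does not cover the fit of all 3 genotypes. Alternatives were other pseudocounts, filters and scalings, limma voom on recovered reads, smaller fits, leaving out each library and a replicate block. Ratios and permutations used Python 3.11.15. The genes and lists were chosen with earlier results of these data known. All 6 genes of the table are named, with the most correlated gene of the 3 with the largest differences in OE18 against WT. Lists of other light-pathway genes and leaf markers, which were to be matched by gene description, could not be applied because the table names no genes. LbDREB6 was not analysed here, so overexpression was not checked.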

Additional observations from a re-analysis of the deposited data

Results flagged for a closer look

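The effects of the lines against WT differed for 5 genes by the direct limma test of OE18 against OE14, which called 77.7% of all tested genes. The log2 fold change was -0.60 for PHYA (limma adjusted p = 7.14e-06) and -0.48 for CO1 (limma adjusted p = 6.09e-07), lower in 3 of 3 OE18 libraries than in any OE14 library. It was -0.21 for PHYB1 (limma adjusted p = 0.0332), also without overlap. It was -0.19 for PHYB2 (limma adjusted p = 0.0485), lower in 2 of 3 OE18 libraries, and 0.36 for CO2 (limma adjusted p = 0.0321), higher in 2 of 3. The calls of PHYB1 and CO2 were each lost in 4 of the 9 fits that leave out 1 library and that of PHYB2 in 7, and with the length trend removed the values of PHYB1 and PHYB2 turned to 0.054 and 0.11.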

How the results depend on the processing

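PHYA in OE18 against WT and against OE14, and CO1 in OE14 against WT and in OE18 against OE14, kept direction and call in every alternative. In OE18 against WT, PHYB1 was called after quantile normalization (-0.34) and rescaling to the same sum (-0.21). CO1 was called there under quantile normalization (-0.32), median-of-ratios scaling (-0.15), rescaling to the same sum (-0.20), voom (-0.11) and length trend removal (-0.25). In OE18 against OE14, PHYB1 (-0.19) and PHYB2 (-0.17) lost their calls under median-of-ratios scaling, PHYB1 (-0.21) and PHYB2 (-0.19) in a fit of only the 2 groups, and PHYB2 (-0.19) and CO2 (0.36) with no filter. CO2 lost its call after quantile normalization (0.21), rescaling to the same sum (0.29) and length trend removal (0.31). Removing the length trend, chosen after seeing the data, turned PHYB2 to 0.0090 in OE14 against WT, PHYB1 and PHYB2 to 0.18 and 0.12 in OE18 against WT, and to 0.054 and 0.11 in OE18 against OE14, and brought PHYA in OE14 against WT to a called 0.15. The number of the 5 genes called in OE18 against WT was 4 under quantile normalization and under rescaling to the same sum, where it was 2 as reported. In OE18 against OE14 it was 3 with no filter, median-of-ratios scaling, only the 2 groups or the replicate block, and 2 with the length trend removed, where it was 5 as reported. In OE14 against WT it was 2 with the length trend removed, where it was 1. The cause was not tested. The CO1 over CO2 log2 ratio, OE18 minus WT, was -0.43 with a pseudocount of 0.1 and -0.44 from reads per base, and in both the F test of this ratio over the 3 genotypes had an adjusted p of 0.05 or more.

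Leaving out 1 library at a time gave, in OE18 against WT, -0.52 to -0.38 for PHYA, -0.19 to -0.09 for PHYB1, -0.31 to -0.18 for PHYB2, -0.14 to -0.066 for CO1 and 0.19 to 0.37 for CO2, with 1 to 4 genes called. In OE18 against OE14 it gave -0.65 to -0.51 for PHYA, -0.27 to -0.18 for PHYB1, -0.26 to -0.13 for PHYB2, -0.52 to -0.44 for CO1 and 0.23 to 0.51 for CO2, with 2 to 5 called. In OE14 against WT it gave -0.24 to 0.036 for CO2. The CO1 over CO2 log2 ratio, OE18 minus WT, ranged from -0.51 to -0.26. Where 1 library was left out, its group was assumed to vary like the others. The replicate numbers of the OE18 and OE14 titles gave no clear sign of a pairing of the libraries. Same-numbered libraries correlated in their deviations at 0.10, 0.06 and -0.015, and not every library correlated best with its own number. With 3 libraries per line these weak correlations cannot exclude a pairing. With the replicate number as a block, PHYB1 (-0.21, limma adjusted p = 0.0624) and PHYB2 (-0.19, limma adjusted p = 0.0586) were not called in OE18 against OE14. The WT columns carry no sample title, so no block including WT was fitted. The FT1 over FT2 ratio was not run because FT2 was not analysed here. Reads were fewest for CO2 and FT1, and the spread of CO2 between libraries exceeded that of counting.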
